A study of Homo sapiens with 4 samples.

Results

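The genes described here are 37 human genes of DNA repair: 9 of nucleotide excision repair, 5 of mismatch repair, 16 of base excision repair and 7 of non-homologous end joining. The list was drawn up by name with earlier results of these data known, and all 37 were found by current symbol among the 63241 genes of the table. Poly(A)-selected RNA had been sequenced from 22Rv1 cells, a human line from a castration-resistant prostate cancer xenograft, after 12 h with 40 nM JMC45 or with the DMSO vehicle. JMC45, which the series title calls D45, is described by the submitters as a degrader of CDK9, the kinase that releases paused RNA polymerase II into elongation. There were 2 JMC45 libraries and 2 vehicle libraries of this single line. No label states whether the libraries of a group were grown as separate cultures, so the p-values cover the spread between libraries alone, and that spread may be technical.

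Excision repair cuts a damaged stretch or base out of a DNA strand and refills the gap. Nucleotide excision repair removes bulky lesions such as those made by ultraviolet light, with the helicases of TFIIH opening the strand and a nuclease cutting on each side of the damage. Base excision repair starts with glycosylases, each of which removes particular damaged or misplaced bases, and passes the site to an endonuclease, a polymerase and a ligase. Mismatch repair removes replication errors, and non-homologous end joining reseals double-strand breaks through DNA-PK and a ligase complex.

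TPM gives each transcript's portion of its library, corrected for length, so levels can be compared between genes but a change is always a change in share. In bulk RNA, fewer cells with a transcript and less of it per cell cannot be told apart, and the depth of the libraries is unknown. The 14018 genes that reached a mean of 1 TPM were tested, and their median changed by -1.10 on the log2(TPM + 1) scale. Mitochondrially encoded genes took 28.0% ± 1.90 of TPM in JMC45 and 20.3% ± 0.225 in vehicle (SD, n = 2), and cytosolic ribosomal protein genes took 29.4% ± 1.13 in JMC45 and 19.5% ± 1.19 in vehicle. The groups did not overlap in either share, with p = 0.33 by exact permutation (two-sided), below which 2 libraries against 2 cannot go. The part of these shares in the changes below was not tested. All 10 luminal prostate markers checked had a mean TPM of at least 1, whereas none of 5 leukocyte and none of 4 endothelial markers did. Among 5 fibroblast markers only COL1A1 reached it, and the 5 summed to 1.72 and 3.18 TPM in JMC45, against 3.79 and 3.38 TPM in vehicle.

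After JMC45, transcripts of all 4 repair pathways made up less of the library, and XRCC6 was the exception. limma called 36 of the 37 genes lower at a Benjamini-Hochberg adjusted p under 0.05 and none higher. Over all genes tested it called 80.7% lower and 4.25% higher, so this count is mostly that of the general shift. Both JMC45 libraries lay below both vehicle libraries for 36 repair genes, as they did for 85.7% of all genes tested. The median change was -1.41, against -1.10 over all genes, and 23 of the 37 had a log2 change of -1 or below, against 54.6% of all genes.

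The direction of many of these genes depends on the scaling. Median-of-ratios scaling, which centres the median gene near 0, called 17 of the 37 lower and 10 higher, where it called 35.5% of all genes lower and 34.9% higher. In the text below, "fell" is used for the test on TPM, and a repair gene that was called higher after median-of-ratios scaling is named as such. On TPM, the changes ran from -3.06 for TDG to 0.00 for XRCC6.

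**Figure D1:**
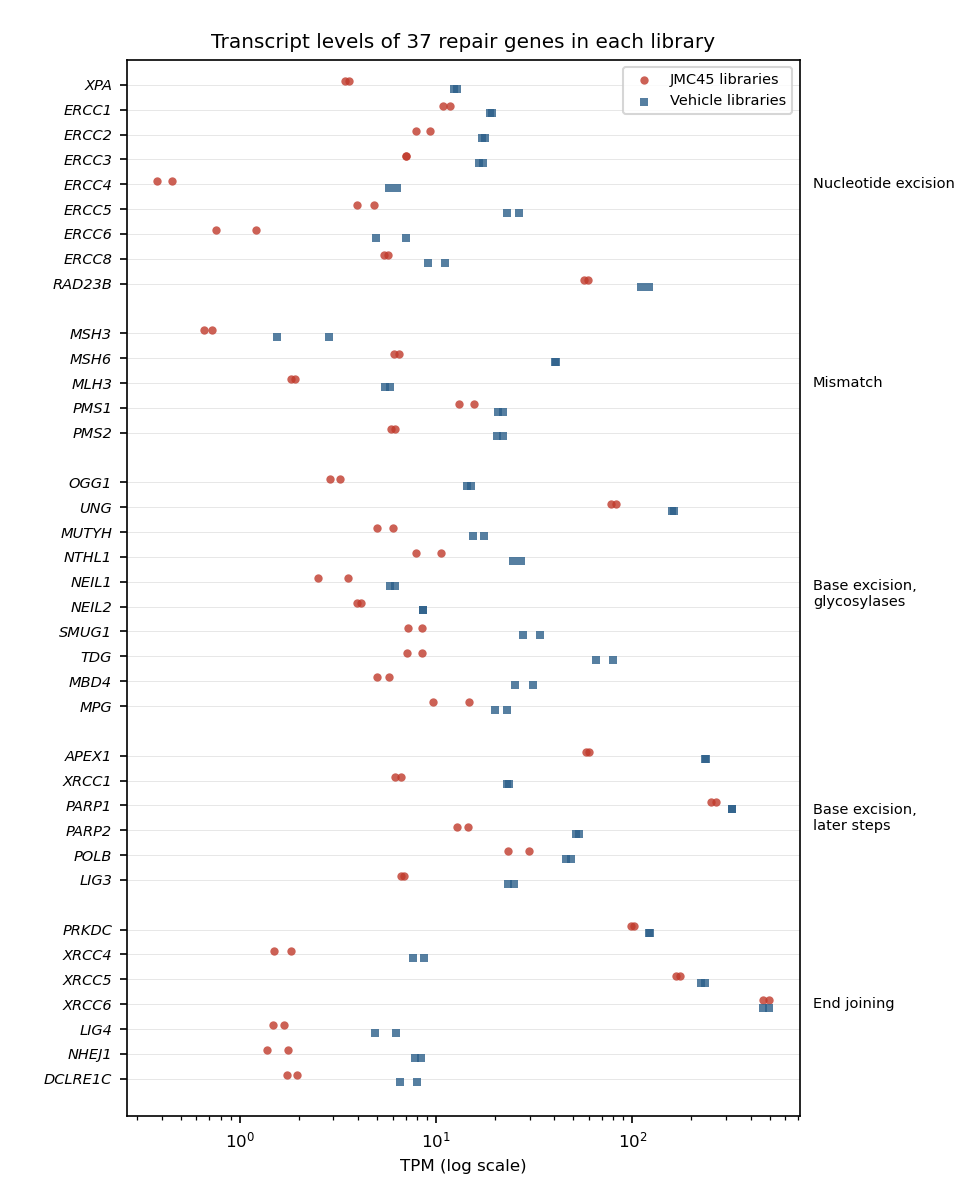
TPM (log axis) of the 37 repair genes in each of the 4 libraries, by pathway, with circles for JMC45 and squares for vehicle. The circles lie left of the squares for every gene except XRCC6, where the groups overlap between 463 and 496 TPM.

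All 9 nucleotide excision repair genes fell, most of all the nuclease genes ERCC4 and ERCC5 and, after them, ERCC6. ERCC4, which encodes XPF, the catalytic subunit of the nuclease that cuts 5′ of the lesion, had 0.38 and 0.45 TPM in JMC45, against 6.31 and 5.76 TPM in vehicle. The groups were far apart, and ERCC4 fell by 2.31 on the log2 scale (SE 0.14, limma adjusted p = 2.69e-05). In mean TPM the JMC45 level was 6.88% of the vehicle level, the lowest share among the 37 genes. ERCC1, the partner that XPF needs for DNA binding, had 11.79 and 10.8 TPM in JMC45, against 19.24 and 18.92 TPM in vehicle. It fell by 0.71 (SE 0.09, limma adjusted p = 0.000587) and was called higher after median-of-ratios scaling (0.56). In GENCODE 29, 28.6% of the ERCC1 exon bases are shared with CD3EAP on the opposite strand, which had 1.53 and 1.47 TPM in JMC45 and 21.0 and 20.23 TPM in vehicle. The libraries were made with a stranded kit, but no source used here says whether the quantification was strand-specific, so the ERCC1 values are uncertain. The same holds for LIG3 (29.1% of exon bases), MPG (27.3%), NEIL1 (26.4%), OGG1 (25.0%), NTHL1 (16.5%), MSH6 (16.2%) and MUTYH (14.1%). Each shares those bases with a gene on the opposite strand.

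ERCC5, which encodes XPG, the nuclease that cuts on the 3′ side, had 4.84 and 3.97 TPM in JMC45, against 26.59 and 22.86 TPM in vehicle. It fell by 2.25 (SE 0.13, limma adjusted p = 2.39e-05), though 63.2% of its exon bases are shared on the same strand with the readthrough gene BIVM-ERCC5, at 0.41 to 1.74 TPM. BIVM shares 19.1% of them on the same strand and had 6.34 and 6.88 TPM in JMC45, above ERCC5 itself, against 12.71 and 10.71 TPM in vehicle, so the ERCC5 values are uncertain. ERCC6, or CSB, the remodeler that recognises RNA polymerase stalled at damage, had 1.21 and 0.76 TPM in JMC45, against 7.05 and 4.96 TPM in vehicle, and fell by 1.81. ERCC8, or CSA, which acts with it in a ubiquitin ligase, had 5.4 and 5.71 TPM in JMC45, against 11.12 and 9.08 TPM in vehicle. Its decrease of 0.75 was smaller than that of ERCC6, and it was called higher after median-of-ratios scaling (0.44).

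The TFIIH helicase genes, which also serve transcription initiation, kept close to the general shift. ERCC3, or XPB, had 7.02 and 7.03 TPM in JMC45, against 16.56 and 17.26 TPM in vehicle, a log2 change of -1.16. ERCC2, or XPD, had 9.27 and 7.91 TPM in JMC45, against 17.13 and 17.71 TPM in vehicle, a log2 change of -0.95. XPA, the scaffold that checks the lesion, fell by 1.58, to 3.61 and 3.45 TPM in JMC45, against 12.74 and 12.38 TPM in vehicle. RAD23B, a stabilising partner of the damage sensor XPC, fell by 0.99, to 56.67 and 59.13 TPM in JMC45, against 121.79 and 110.52 TPM in vehicle. It was called higher after median-of-ratios scaling (0.35) but lower with quantile normalization (-0.31). The median of the 9 genes was -1.16, a difference of -0.06 from the median of all genes, which became 0.04 without vehicle replicate 2.

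Of the mismatch repair genes, MSH6 had the largest decrease and PMS1 the smallest. MSH6, which pairs with a common MutS partner to recognise base mismatches, had 6.13 and 6.5 TPM in JMC45, against 40.69 and 40.11 TPM in vehicle. It fell by 2.50 (SE 0.09, limma adjusted p = 1e-05), and 5.94% of all genes tested had a lower change. MSH3, the alternative subunit for larger loops, was already low, at 0.72 and 0.66 TPM in JMC45 and at 2.84 and 1.54 TPM in vehicle. Its log2 change of -0.89 (SE 0.23, limma adjusted p = 0.0105) was not called without JMC45 replicate 2 (limma adjusted p = 0.0576).

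The MutL genes differed from each other. PMS2, whose product carries the endonuclease of the main MutL complex, had 6.17 and 5.92 TPM in JMC45, against 21.99 and 20.38 TPM in vehicle, and fell by 1.65. The table also lists 17 copies of PMS2 by name, whose TPM summed to 22.7 and 27.5 in JMC45 and to 54.4 and 47.1 in vehicle, more than PMS2 itself, so its values are uncertain. PMS1 had 15.65 and 13.05 TPM in JMC45, against 21.98 and 20.68 TPM in vehicle. It fell by 0.55 (SE 0.11, limma adjusted p = 0.00434) and was called higher after median-of-ratios scaling (0.73). MLH3, a MutL subunit best known from meiosis, fell by 1.21, to 1.83 and 1.9 TPM in JMC45, against 5.8 and 5.49 TPM in vehicle.

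Among the 10 glycosylase genes of base excision repair, those for thymine in T:G mispairs fell most. TDG, the thymine DNA glycosylase that also acts in active DNA demethylation, had 7.14 and 8.49 TPM in JMC45, against 79.75 and 65.33 TPM in vehicle. It fell by 3.06 (SE 0.13, limma adjusted p = 1.17e-05), the largest decrease of the 37 on this scale, and 1.41% of all genes tested had a lower change. MBD4, which acts on the same mispair at methylated CpG sites, had 5.78 and 4.98 TPM in JMC45, against 31.16 and 25.35 TPM in vehicle, and fell by 2.19. The groups did not overlap for either gene, and both were also called lower after median-of-ratios scaling, by 1.78 and 0.96.

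The uracil glycosylases had unequal decreases. UNG, the main enzyme for uracil incorporated at replication, had 77.71 and 82.81 TPM in JMC45, against 163.51 and 160.05 TPM in vehicle, and fell by 1.00. It was called higher after median-of-ratios scaling (0.34) but lower with quantile normalization (-0.44). SMUG1, which removes uracil and its oxidised forms, had 8.48 and 7.15 TPM in JMC45, against 33.9 and 27.57 TPM in vehicle, and fell by 1.84.

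The glycosylase genes for oxidised and alkylated bases ranged from -1.95 to -0.79. OGG1, which removes 8-oxoguanine, had 3.23 and 2.87 TPM in JMC45, against 15.02 and 14.36 TPM in vehicle, and fell by 1.95. CAMK1, which overlaps it most, had 10.86 and 11.44 TPM in JMC45 and 21.84 and 22.2 TPM in vehicle. TADA3 shares 4.1% of the OGG1 exon bases on the opposite strand. It had 49.76 and 46.83 TPM in JMC45 and 68.98 and 72.11 TPM in vehicle. MUTYH, which removes adenine opposite 8-oxoguanine, had 4.98 and 6.03 TPM in JMC45, against 17.5 and 15.49 TPM in vehicle, and fell by 1.43. NTHL1, for oxidised pyrimidines, fell by 1.41, to 10.58 and 7.93 TPM in JMC45, against 24.75 and 27.2 TPM in vehicle.

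NEIL1 and NEIL2, which act on oxidised bases in open DNA structures, had smaller decreases, of 0.81 and 0.92. NEIL1 had 3.54 and 2.5 TPM in JMC45, against 5.82 and 6.15 TPM in vehicle, and NEIL2 had 3.97 and 4.15 TPM in JMC45, against 8.6 and 8.61 TPM in vehicle. MPG, the alkyladenine glycosylase, had 14.7 and 9.66 TPM in JMC45, against 19.99 and 22.92 TPM in vehicle. Its change of -0.79 (SE 0.19, limma adjusted p = 0.00867) was not called without vehicle replicate 1 (limma adjusted p = 0.0578) or without vehicle replicate 2 (limma adjusted p = 0.0985). Over the 10 glycosylase genes the median change was -1.42.

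The later steps of base excision repair fell together, apart from PARP1 and POLB. APEX1, the endonuclease that cuts at the site a glycosylase leaves bare, had 57.82 and 60.09 TPM in JMC45, against 233.95 and 237.59 TPM in vehicle. It fell by 1.98 (SE 0.06, limma adjusted p = 9.78e-06). XRCC1, the scaffold of single-strand break repair, had 6.64 and 6.18 TPM in JMC45, against 23.03 and 23.44 TPM in vehicle. Its ligase partner LIG3 had 6.59 and 6.84 TPM in JMC45, against 24.97 and 23.38 TPM in vehicle. XRCC1 and LIG3 each fell by 1.71, and their TPM stood near 1 to 1 in all 4 libraries.

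PARP1 and PARP2, which sense strand breaks and build poly(ADP-ribose), did not move together. PARP1 had 252.64 and 266.24 TPM in JMC45, against 322.15 and 321.09 TPM in vehicle. It fell by 0.31 (SE 0.06, limma adjusted p = 0.00273), was not called with the mitochondrially encoded genes left out (-0.16, limma adjusted p = 0.0532), and was called higher after median-of-ratios scaling (1.04). With quantile normalization PARP1 was not called (0.04). PARP2 had 14.59 and 12.82 TPM in JMC45, against 53.42 and 51.73 TPM in vehicle, and fell by 1.87. POLB, the polymerase that fills the gap, had 23.12 and 29.64 TPM in JMC45, against 45.79 and 48.86 TPM in vehicle. It fell by 0.83, was called higher after median-of-ratios scaling (0.49) and was not called with quantile normalization (0.20).

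The 7 end-joining genes did not change alike. Those of DNA-PK, which binds and holds the ends, kept most of their share, and those of end trimming and ligation did not. The DNA-PK genes were also the most abundant of the 7, so step and abundance cannot be told apart here. Over the 9 other end-joining genes, given below, the changes ranged from -3.53 to -0.58. XRCC6, or Ku70, had 465.25 and 494.45 TPM in JMC45, against 462.83 and 496.14 TPM in vehicle. The groups overlapped, and the log2 change was 0.00 (SE 0.07, limma adjusted p = 0.986), higher than that of 90.6% of all genes tested. XRCC6 was called higher after median-of-ratios scaling (1.35) and lower with the mitochondrially encoded total held equal (-0.46).

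XRCC5, or Ku80, the other subunit of the Ku ring, had 165.88 and 174.99 TPM in JMC45, against 233.59 and 224.18 TPM in vehicle, and fell by 0.42 (SE 0.06, limma adjusted p = 0.000871). PRKDC, the catalytic subunit of DNA-PK, had 98.0 and 101.68 TPM in JMC45, against 123.11 and 121.06 TPM in vehicle. It fell by 0.29 (SE 0.06, limma adjusted p = 0.00456) and was not called with the mitochondrially encoded genes left out (-0.14, limma adjusted p = 0.0871). Both genes were called higher after median-of-ratios scaling, by 0.92 and 1.05. With quantile normalization PRKDC was called higher (0.27) and XRCC5 was not called (-0.07).

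The end-processing nuclease and the ligase complex were much less abundant and lay below the general shift. NHEJ1, or XLF, a stimulator of the ligase, had 1.37 and 1.75 TPM in JMC45, against 7.78 and 8.39 TPM in vehicle, and fell by 1.83. Of its exon bases, 65.4% are shared on the same strand with AC068946.1, at 0.09 to 0.17 TPM, so the NHEJ1 values are uncertain. XRCC4, the scaffold of the ligase, had 1.82 and 1.5 TPM in JMC45, against 8.68 and 7.67 TPM in vehicle, and fell by 1.79. LIG4, the ligase itself, had 1.67 and 1.47 TPM in JMC45, against 6.25 and 4.86 TPM in vehicle, and fell by 1.34. After median-of-ratios scaling LIG4 was not called (-0.34, limma adjusted p = 0.0509). DCLRE1C, or Artemis, the nuclease that DNA-PK activates, had 1.95 and 1.74 TPM in JMC45, against 8.0 and 6.52 TPM in vehicle, and fell by 1.53. At TPM this low, the log2(TPM + 1) scale understates the change, and the mean JMC45 level was 19.3% to 28.3% of the vehicle level for these 4 genes.

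**Figure D2:**
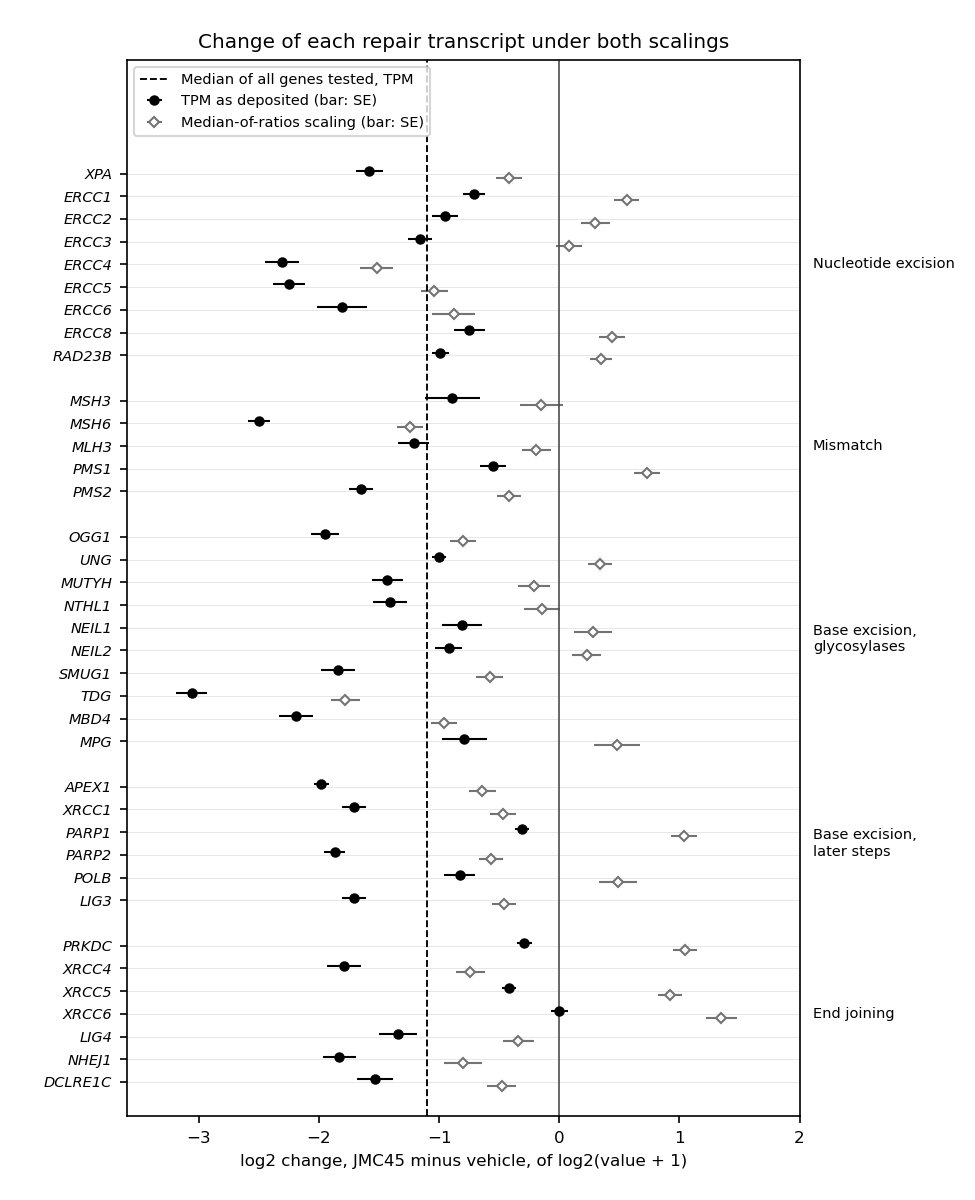
Log2 change (JMC45 minus vehicle) of each of the 37 genes, with SE, on TPM (filled circles) and after median-of-ratios scaling (open diamonds). The dashed line is the median of all genes tested on TPM, -1.10, and TDG at -3.06 and XRCC6 at 0.00 mark the ends of the filled circles.

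Ratios between partner transcripts within a library are free of the scaling of that library, and they show which partners moved apart. The ratio of ERCC1 to ERCC4 was 31.0 and 24.0 in JMC45, against 3.05 and 3.28 in vehicle. With ERCC4 at only 0.38 and 0.45 TPM in JMC45 and the ERCC1 values uncertain, the size of this ratio is uncertain too. PARP1 to PARP2 stood at 17.3 and 20.8 in JMC45, against 6.03 and 6.21 in vehicle, and XRCC6 to XRCC4 at 256 and 330 in JMC45, against 53.3 and 64.7 in vehicle. In all 3 pairs the more abundant transcript gained on its partner. For the Ku subunits, XRCC6 to XRCC5 was 2.80 and 2.83 in JMC45 and 1.98 and 2.21 in vehicle, a smaller displacement.

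Other pairs moved the opposite way. MSH6 to MSH3 was 8.51 and 9.85 in JMC45, against 14.3 and 26.0 in vehicle, and APEX1 to POLB was 2.50 and 2.03 in JMC45, against 5.11 and 4.86 in vehicle. TDG to MBD4 was 1.24 and 1.70 in JMC45, against 2.56 and 2.58 in vehicle. XRCC1 to LIG3 overlapped between the groups, at 1.01 and 0.904 in JMC45 and at 0.922 and 1.00 in vehicle (exact permutation p = 1.0, two-sided). The LIG3 and MSH6 values are uncertain for the overlaps given above. Each of the other ratios named here did not overlap and had an exact permutation p of 0.33, the smallest possible, so none can pass a threshold with these libraries. The pairs were chosen with the values known.

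**Figure D3:**
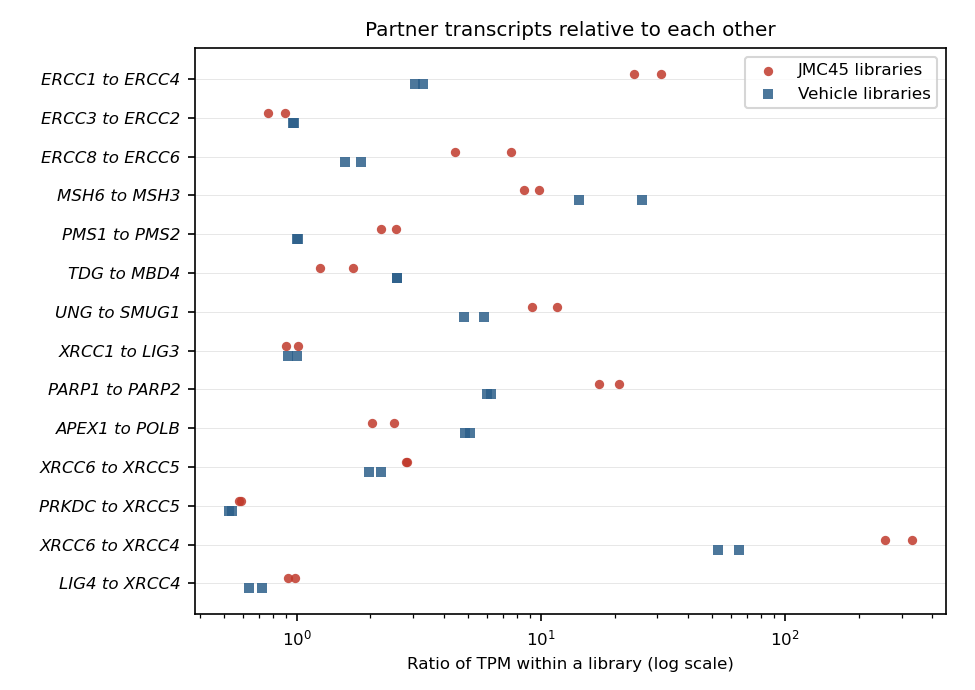
Ratio of TPM between partner transcripts (log axis) in each library, circles for JMC45 and squares for vehicle, for 14 pairs. ERCC1 to ERCC4, with ERCC4 at only 0.38 and 0.45 TPM in JMC45, is farthest apart between the groups, and XRCC1 to LIG3 overlaps. The ERCC1 and LIG3 values are uncertain for their overlap with other genes.

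The mix of repair transcripts differed between the groups. The 37 genes summed to 1368 and 1423 TPM in JMC45, against 2285 and 2256 TPM in vehicle. End joining made up 53.8% and 54.6% of that sum in JMC45, against 37.2% and 38.5% in vehicle. Base excision repair made up 36.7% and 36.4% in JMC45 and 48.3% and 47.8% in vehicle. Nucleotide excision repair took 7.32% and 6.97% in JMC45 and 10.4% and 9.73% in vehicle, and mismatch repair 2.23% and 1.97% in JMC45 and 4.08% and 3.91% in vehicle. Since sums follow the most abundant genes, XRCC6 alone held 34.0% and 34.7% of the sum in JMC45 and 20.3% and 22.0% in vehicle. XRCC6, XRCC5, PARP1 and PRKDC, singled out after their values were seen, kept together 87.6% of their vehicle TPM, and the other 33 genes 34.5%.

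**Figure D4:**
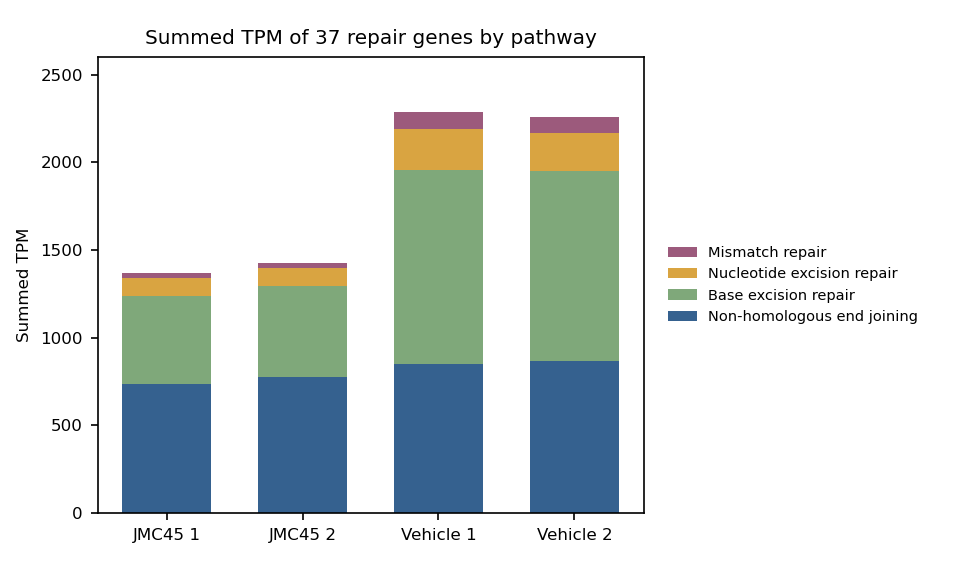
Summed TPM of the 37 genes in each library, stacked by pathway. The end-joining block differs least between JMC45 (736 and 778 TPM) and vehicle (850 and 869 TPM).

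By median rather than by sum, the pathways stood closer and in another order. The median change was -1.57 over the 16 base excision genes, -1.34 over the 7 end-joining genes, -1.21 over the 5 mismatch genes and -1.16 over the 9 nucleotide excision genes. The end-joining genes ranged from -1.83 to 0.00 and the base excision genes from -3.06 to -0.31, so the spread within a pathway was wider than the differences between the medians. The order of the medians also depends on the scale. As a percentage of vehicle TPM, the median JMC45 level was 28.3% for end joining and 30.6% for base excision. It was 31.5% for mismatch and 41.5% for nucleotide excision, against 38.7% over all genes tested. No test was run between pathways. Of the 37 genes, 9, 5, 16 and 6 fell in the nucleotide excision, mismatch, base excision and end-joining pathways, where 80.7% of all genes were called lower.

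Other genes of the same pathways, 52 in lists drawn up by name, included 50 with enough signal, of which 48 fell and 2 rose on TPM, where 80.7% of all genes were called lower and 4.25% higher. Their median was -1.24. Median-of-ratios scaling called 21 of the 50 lower and 18 higher, where it called 35.5% and 34.9% of all genes. In nucleotide excision repair 14 of 15 fell, with a median of -0.93, led by CDK7, the TFIIH kinase (-2.58), the damage sensor XPC (-2.38), the CSA and XPA partner XAB2 (-1.78) and the cyclin CCNH (-1.25). CETN2, a centrin that stabilises XPC, had 54.74 and 55.84 TPM in JMC45, against 48.58 and 45.61 TPM in vehicle. It rose by 0.23 (limma adjusted p = 0.0229). That call was lost on leaving out JMC45 replicate 1, JMC45 replicate 2, vehicle replicate 2 or the intensity trend, and its sign turned (-0.23) once the mitochondrial total was equalised. It was called higher after median-of-ratios scaling (1.55).

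In base excision and single-strand break repair, 9 of 10 other genes fell, with a median of -2.01, led by the endonuclease APEX2 (-2.69), the gap-filling polymerase POLL (-2.25), the glycosylase NEIL3 (-2.23) and TDP1, which clears topoisomerase adducts (-2.22). All 9 other end-joining genes fell, with a median of -1.74, led by CYREN, a modulator of Ku (-3.53), the histone variant gene H2AX (-2.53), TDP2 (-1.90) and RIF1, a partner of 53BP1 (-1.84).

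Among 14 genes of the shared resynthesis machinery all fell, with a median of -1.24. PCNA, the sliding clamp (-2.69), the polymerase delta subunit POLD3 (-2.34), and the clamp loader genes RFC1 (-1.99) and RFC3 (-1.75) led them. Of the 2 other mismatch repair genes with enough signal, the exonuclease EXO1 fell by 2.87 and MSH5, a MutS gene of meiosis, by 0.59. MSH5 was called higher after median-of-ratios scaling (0.69), as it was with quantile normalization (0.66). For comparison, 31 of 32 homologous recombination and Fanconi genes fell, where 80.7% of all genes were called lower, with a median of -1.84, against -1.41 over the 37 genes. FANCA, of the Fanconi core complex, was the exception, with 36.86 and 32.31 TPM in JMC45 against 26.14 and 29.14 TPM in vehicle. It rose by 0.31 (limma adjusted p = 0.0263), and was called higher after median-of-ratios scaling (1.62). On TPM it was not called without JMC45 replicate 1, without vehicle replicate 1, without the filter on low values or without the intensity trend, and it turned to -0.13 with the mitochondrial total equalised. After median-of-ratios scaling 21 of those 32 were called lower and 4 higher, against 35.5% and 34.9% of all genes. The difference between these lists was not tested.

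Several repair genes start next to a gene on the opposite strand. The RefSeq promoter table (GRCh38.p14) held 32 of the 37, and the other genes could not be searched. Of those 32, 10 had a tested neighbour on the opposite strand with a start within 1000 bases. PMS2 and AIMP2, a scaffold of tRNA synthetases, each changed by -1.65, with AIMP2 at 27.44 and 30.06 TPM in JMC45 and 91.29 and 93.27 TPM in vehicle. The other 9 pairs differed to varying degrees. XRCC6 had a log2 change of 0.00, and DESI1, with a start 252 bases away, had 10.8 and 10.05 TPM in JMC45, against 25.58 and 24.58 TPM in vehicle, and fell by 1.19.

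MUTYH fell by 1.43 and TOE1, a deadenylase gene that starts 50 bases away, fell by 2.97, to 1.07 and 1.45 TPM in JMC45, against 17.62 and 15.76 TPM in vehicle. NTHL1 fell by 1.41, while TSC2, the tuberous sclerosis gene that starts 151 bases away, had 20.99 and 18.62 TPM in JMC45, against 21.92 and 23.75 TPM in vehicle (log2 change -0.20, limma adjusted p = 0.104). MUTYH and TOE1 share 14.1% of the MUTYH exon bases and NTHL1 and TSC2 share 16.5% of those of NTHL1, on opposite strands. The difference between neighbours was not tested.

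**Figure D5:**
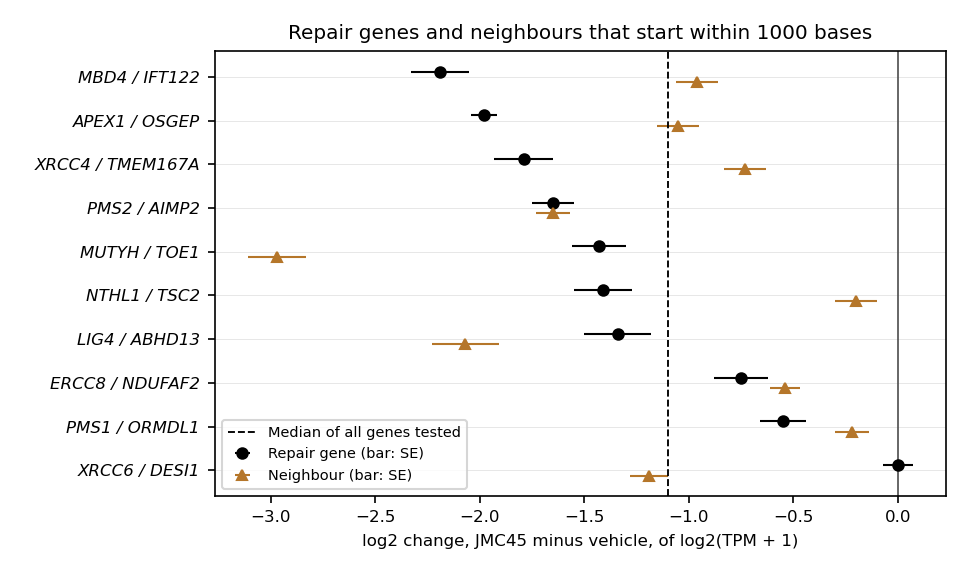
Log2 change (JMC45 minus vehicle, with SE, on TPM) of 10 repair genes (circles) and of the neighbours that start within 1000 bases on the opposite strand (triangles). PMS2 and AIMP2 coincide at -1.65, while NTHL1 (-1.41) and TSC2 (-0.20) lie far apart.

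Upstream sequence is shown for the 3 genes with the largest decreases and for PARP1, among the genes with the smallest. It was taken from RefSeq (GRCh38.p14), where 32 of the 37 genes had an entry, and is the longest run within the 250 bases before the start that no exon of GENCODE 29 covers. Capitals mark GGGCGG or CCAAT on either strand, the motifs of SP and NF-Y factors.
TDG, chr12:103965709-103965803, plus strand: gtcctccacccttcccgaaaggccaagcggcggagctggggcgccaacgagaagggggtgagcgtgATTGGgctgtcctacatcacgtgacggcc
MSH6, chr2:47782895-47783081, plus strand: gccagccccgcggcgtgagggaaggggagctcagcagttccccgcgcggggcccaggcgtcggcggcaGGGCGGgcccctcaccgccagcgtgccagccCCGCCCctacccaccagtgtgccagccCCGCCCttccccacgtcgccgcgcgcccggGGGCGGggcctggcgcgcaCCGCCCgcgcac
ERCC4, chr16:13919904-13920153, plus strand: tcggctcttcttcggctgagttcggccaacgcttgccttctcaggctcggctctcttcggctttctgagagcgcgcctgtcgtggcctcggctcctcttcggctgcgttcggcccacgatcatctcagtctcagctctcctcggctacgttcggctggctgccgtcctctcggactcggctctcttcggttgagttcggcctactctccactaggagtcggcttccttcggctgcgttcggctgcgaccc
PARP1, chr1:226408094-226408343, minus strand: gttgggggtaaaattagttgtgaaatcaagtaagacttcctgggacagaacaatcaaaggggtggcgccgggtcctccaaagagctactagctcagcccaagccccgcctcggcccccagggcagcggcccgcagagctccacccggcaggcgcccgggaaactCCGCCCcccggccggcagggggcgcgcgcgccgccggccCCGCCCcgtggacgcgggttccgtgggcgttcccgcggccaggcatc

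The full windows of 250 bases, of which the printed runs of TDG and MSH6 are parts, differed in motif content. The MSH6 window held 5 GGGCGG matches and 1 CCAAT match, the latter outside the printed run. The PARP1 window held 2 GGGCGG matches, the TDG window a single CCAAT match, and the ERCC4 window none of the motifs searched. The ERCC4 window instead held 6 copies of TTCGGCT, a word noticed on reading it, and no other of 27305 promoters held as many, while 1.71% held at least 1 on either strand. In the full 250 bases, GGGCGG was in 22 of the 32 repair promoters and in 42.3% of all promoters, and CCAAT in 15 of the 32 and in 33% of all. TATAAA was in 1 of the 32, against 11.1% of all, CCGGAAG in 4, against 8.82%, TTTGGCGC in 1, against 0.553%, and TTTCCCGC in none, against 1.42%. Both strands were searched, and none of the 6 motifs contains another. Those 250 bases had a median GC content of 64.2% in the repair promoters and 58.0% in all promoters. The part of GC content in the motif counts was not tested.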

How the data were processed

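The deposited table gives TPM per Ensembl gene in 4 libraries, per the file headers, 1 column per library. Fastp, HISAT2 and StringTie are named, per the submitters' processing notes; no source used here gives the build, the annotation or the use of strand. Per the labels' protocols, libraries were made with a stranded kit from oligo(dT)-selected RNA. Control columns were taken as the vehicle libraries by name and number.

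50 lines without values were left out, and 62666 of 63241 genes had a symbol. log2(TPM + 1) was fitted for 14018 genes (mean of 1 TPM or more) with limma 3.58.1 in R 4.3.3 (intensity trend, no block, two-sided, Benjamini-Hochberg over all genes, threshold 0.05). The fit was tested on simulated data without a general shift. It recovered 16%, 52%, 96% and 100% of simulated log2 changes of 0.5, 1.0, 2.0 and 3.0. The real data hold such a shift, so these rates may not apply to them. All 37 repair genes passed the filter. The members and lists were chosen with earlier results of these data known. All members were named. Of the lists of other genes, up to 4 with the largest called change and any called higher were named, apart from items that are not reported here, and of the homologous recombination and Fanconi list the gene called higher was named after its value was seen. Upstream sequences were those of the 3 largest decreases and 3 highest changes outside chromosome 8, where the table had an entry and left a run free of exons of over 30 bases. Exons came from GENCODE 29. Depth is unknown, so no counting intervals are given. 13 alternatives were tried. Figures used Python 3.11.15 and matplotlib 3.10.9.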

Additional observations from a re-analysis of the deposited data

How the results depend on the processing

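With 2 libraries per group and a relative unit, directions near the general shift rest on the scaling. Over all genes, median-of-ratios scaling called 4981 lower and 4888 higher, quantile normalization 4603 and 4716, and 181 higher with the mitochondrially encoded total held equal, against 11311 and 596 on TPM. Of the 37 repair genes, median-of-ratios scaling called 17 lower and 10 higher, quantile normalization 17 and 8. Of the other repair genes, 21 were lower and 18 higher, and 26 and 12, while 1 was higher with the mitochondrial total held equal or without the intensity trend, and 1 to 2 with a library left out.

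Under the other 11 settings, 389 of 398 recomputed changes of single repair genes kept their direction and their side of the threshold, and MSH3 was also not called without the filter (-0.89). XRCC6, at 0.00, became -0.46 with the mitochondrial total held equal, -0.04 without JMC45 replicate 2 and -0.05 without vehicle replicate 1, in a range of -0.05 to 0.05 over the libraries left out. Quantile normalization gave 0.22 and median-of-ratios scaling 1.35, both called higher. After median-of-ratios scaling the sign turned for ERCC1 (0.56), ERCC2 (0.30), ERCC3 (0.08), ERCC8 (0.44), RAD23B (0.35), PMS1 (0.73), UNG (0.34), NEIL1 (0.28), NEIL2 (0.23), MPG (0.48), PARP1 (1.04), POLB (0.49), PRKDC (1.05) and XRCC5 (0.92). After quantile normalization it turned for ERCC1 (0.58), ERCC2 (0.39), ERCC3 (0.19), ERCC8 (0.61), MSH3 (0.14), MLH3 (0.06), PMS1 (0.70), NEIL1 (0.52), NEIL2 (0.44), MPG (0.48), PARP1 (0.04), POLB (0.20) and PRKDC (0.27). Of the genes called higher after median-of-ratios scaling, quantile normalization called UNG (-0.44) and RAD23B (-0.31) lower. It did not call PARP1, POLB or XRCC5 (-0.07), and it called the others higher. Both scalings lift the median gene to near 0 by construction.

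Relative to the median of all genes, the pathway medians on TPM were -0.06 (nucleotide excision), -0.11 (mismatch), -0.47 (base excision), -0.24 (end joining) and -0.30 (all 37). With a pseudocount of 0.1 they were 0.09, -0.21, -0.36, -0.41 and -0.23. Without the filter, where the median of all genes is -0.30, they were -0.86, -0.92, -1.27, -1.05 and -1.11. At a mean TPM of at least 5, which leaves 28 of the 37 genes, they were 0.14, -0.52, -0.57, 0.84 (3 end-joining genes) and -0.15. Median-of-ratios scaling gave 0.09 for nucleotide excision, -0.17 for mismatch, -0.32 for base excision and -0.19 for all 37. Quantile normalization gave -0.23 for nucleotide excision, 0.04 for mismatch, -0.12 for end joining and -0.23 for all 37. Leaving out libraries gave -0.15 to 0.04 for nucleotide excision, -0.53 to -0.44 for base excision and -0.33 to -0.20 for all 37. The replicate block changed no call among the 37 repair genes (36 lower), and same-numbered libraries did not deviate together (r = -0.0471 across genes, which are not independent replicates).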

Other observations

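Gene structure was taken from GENCODE 29. Across the 37 genes the rank correlation of the log2 change with gene span was 0.16, with exonic length -0.04, with the number of exon blocks 0.25 and with mean vehicle TPM 0.10. Over the 13475 tested genes with an entry these values were 0.00, -0.08, 0.03 and -0.06. The points share libraries and are given as a description. PRKDC, which spans 187 kb in 87 exon blocks, fell by 0.29, and XRCC4, which spans 276 kb in 9 exon blocks, fell by 1.79. APEX1, the shortest of the 37 at 2.58 kb, fell by 1.98.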
